A study of Homo sapiens with 6 samples.

Results

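The 7 genes of the insulin-like growth factor (IGF) binding protein family, IGFBP1 to IGFBP7, were followed in undifferentiated H7 human embryonic stem cells (hESCs) that were wild type (WT) or lacked S6K1. They were taken by gene symbol from a table of 61155 symbols, and all 7 were found in it. The cells belong to H7, an established hESC line grown without feeder cells on Matrigel in TeSR-E8 medium. WT H7 cells gave 3 libraries, and a clone in which exons 9 and 11 of RPS6KB1, the gene of S6K1, had been targeted with CRISPR/Cas9 (S6K1-/- clone #1) gave the other 3. The labels call this genotype a knockdown and give both groups a time of week 5, whereas the methods describe a knockout and undifferentiated cells. All S6K1-/- libraries come from 1 clone, so an effect of the genotype and a difference between clones cannot be told apart. No source says if the 3 libraries of a genotype were grown as separate cultures, so that p-values measure only the spread between these libraries, which may be technical.

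IGF binding proteins are secreted proteins that hold IGF1 and IGF2 outside the cell, where they prolong the life of the ligands, keep them from the receptor IGF1R or deliver them when the binding protein is cut by a protease. IGF1R and the insulin receptor activate the PI3K, AKT and mTOR pathway, in which S6K1 is a kinase activated by mTOR complex 1. TeSR-E8 medium contains insulin, so these cells received a ligand of this pathway from the medium.

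Of the 7 genes, IGFBP6 fell in S6K1-/- hESCs, to 0.34 times its WT level, and no other member passed the threshold of an adjusted p under 0.001 in the edgeR test with low counts filtered out. IGFBP4 was 1.19 times its WT level and missed it there but passed it in DESeq2 and, as did IGFBP2, without the filter on low counts. IGFBP2 and IGFBP3 were 0.87 and 0.84 times theirs, and IGFBP5 and IGFBP7 lay at 1.00 and 1.04 times. IGFBP1 was nearly absent from both genotypes. By the edgeR quasi-likelihood F test, 1 of the 6 members tested was lower and 0 were higher. Over all 19521 genes tested, 3.96% passed the threshold in either direction, 2.54% as lower and 1.42% as higher. At an unadjusted p under 0.05, 2 members were lower and 1 was higher, and with the Wald test of DESeq2 there were 1 lower and 1 higher at the threshold of 0.001. Over all genes these rules called 14.5% lower and 11.8% higher by the unadjusted p, and 2.32% lower and 1.62% higher of the 20175 genes with an adjusted p from DESeq2. The libraries of the genotypes did not overlap for 3 of the 6 members tested, IGFBP3, IGFBP4 and IGFBP6, whereas this held for 30.7% of all genes tested. Over the 6 members the log2 fold changes had a median of -0.11, and 4 were negative, and that of all genes tested was -0.0024.

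**Figure D1:**
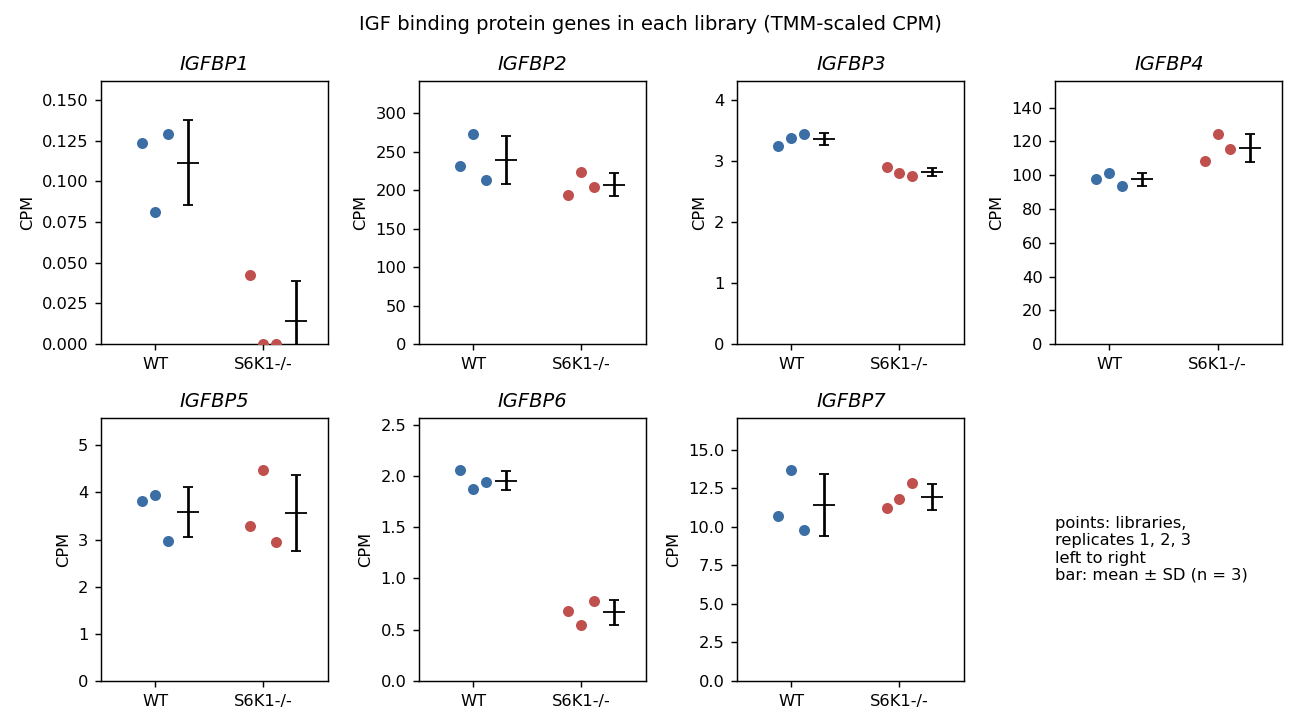
Level of each IGF binding protein gene in CPM (counts scaled to library depth, vertical axes from 0, each with its own scale) in the WT (blue) and S6K1-/- (red) libraries, with points for the libraries and bars for the mean ± SD (n = 3). IGFBP6 lies between 1.87 and 2.05 CPM in WT and between 0.543 and 0.781 CPM in S6K1-/- hESCs, and IGFBP1 rests on 3 counts or fewer in every library.

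The libraries held from 21896698 to 24473013 counts, and the 7 genes took from 0.0317% to 0.0399% of them. RPS6KB1 had 831, 791 and 777 counts in WT and 464, 464 and 438 in S6K1-/- hESCs, and it fell by 0.75 on the log2 scale (SE, the standard error, 0.057, edgeR adjusted p = 2.52e-07), lower in each library labelled as S6K1-/-. Of 10 markers of pluripotent stem cells, all were tested, with summed levels from 6700 to 6894 CPM in WT and from 6281 to 6353 CPM in S6K1-/- hESCs, and at the threshold of 0.001 DNMT3B was the 1 marker that passed and fell by 0.35 on the log2 scale (adjusted p = 4.88e-05). At an unadjusted p under 0.05, 4 were lower and 1 was higher, beside 14.5% and 11.8% of all genes, and the libraries did not overlap for 6 of the 10, beside 30.7%.

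The family was uneven in level. Divided by the exonic length of each gene, IGFBP2 (50.4 ± 6.51 CPM per kilobase, SD, n = 3) and IGFBP4 (44.2 ± 1.75) stood above the others in WT hESCs, followed by IGFBP7 (5.91 ± 1.04), IGFBP6 (1.45 ± 0.069), IGFBP3 (0.734 ± 0.022), IGFBP5 (0.554 ± 0.082) and IGFBP1 (0.068 ± 0.016). The ranges of IGFBP2, from 45 to 57.6 CPM per kilobase, and IGFBP4, from 42.4 to 45.9, overlapped in WT, and the other neighbours in this order did not. In S6K1-/- hESCs the order was IGFBP4 (52.7 ± 3.69 CPM per kilobase, SD, n = 3), IGFBP2 (43.7 ± 3.09), IGFBP7 (6.18 ± 0.424), IGFBP3 (0.617 ± 0.016), IGFBP5 (0.551 ± 0.124), IGFBP6 (0.497 ± 0.089) and IGFBP1 (0.0086 ± 0.015). There, IGFBP5, from 0.455 to 0.691 CPM per kilobase, overlapped both IGFBP3 and IGFBP6. IGFBP6 stood in the fourth place in WT and in the sixth in S6K1-/- hESCs, where it could not be told from IGFBP5. These levels use the length of all annotated exons and counts from an aligner that does not span splice junctions, so the order between genes of unlike structure is approximate.

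IGFBP6 encodes the member that binds IGF2 in preference to IGF1. It lies on the plus strand of chromosome 12 from 53097436 to 53102345 (GRCh38, GENCODE 44), with 4 exons in its canonical transcript and no overlapping gene. WT libraries held 50, 46 and 45 of its counts and S6K1-/- libraries 16, 13 and 17. The highest S6K1-/- library thus lay well under the lowest WT library, and the libraries within each genotype were closer together than counting alone gives, with coefficients of variation of 4.73% against 14.6% in WT and 17.9% against 25.5% in S6K1-/- hESCs, so that their closeness is no measure of precision. The level was 1.95 ± 0.092 CPM in WT and 0.669 ± 0.119 CPM in S6K1-/- hESCs (SD, n = 3 each). It fell by 1.55 on the log2 scale (SE 0.212, 95% interval -2.00 to -1.09), with an adjusted p = 1.25e-04 in the edgeR quasi-likelihood F test, and was 2.92 times higher in WT. Without S6K1-/- replicate 2, the library with the lowest count, it fell by 1.41 and the adjusted p was 0.00121, which misses the threshold. With each of the other libraries left out in turn it passed, and the adjusted p ran from 5.44e-09 to 0.00121 over all the alternatives.

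The segment before the start of IGFBP6 is shown because this is the 1 member past the threshold in the edgeR test with low counts filtered out. The first sequence gives the 250 bases upstream of the RefSeq start (GRCh38.p14, chr12:53097417-53097666, plus strand), and the second the same window of IGFBP4 (chr17:40443200-40443449, plus strand), the abundant member with the next smallest p. Capitals mark matches to a TATA box (TATAAA) or a GC box (GGGCGG) on either strand.
IGFBP6: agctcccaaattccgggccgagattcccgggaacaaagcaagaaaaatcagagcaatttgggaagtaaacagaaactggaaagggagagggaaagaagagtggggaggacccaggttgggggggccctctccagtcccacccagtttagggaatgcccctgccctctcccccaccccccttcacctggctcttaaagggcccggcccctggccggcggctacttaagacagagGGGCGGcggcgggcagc
IGFBP4: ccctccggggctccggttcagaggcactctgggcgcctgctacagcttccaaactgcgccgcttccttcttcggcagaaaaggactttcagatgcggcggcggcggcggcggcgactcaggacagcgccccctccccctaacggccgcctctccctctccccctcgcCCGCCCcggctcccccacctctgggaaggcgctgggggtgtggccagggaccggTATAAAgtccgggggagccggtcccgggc
IGFBP6 holds 1 GC box, 17 bases before the start, and no TATAAA. IGFBP4 holds a TATAAA 29 bases before the start and a GC box 83 bases before it. Of 35116 RefSeq promoter windows, 42.6% hold a GC box and 10.7% a TATAAA on either strand. The windows hold 9 CpG sites in IGFBP6 and 24 in IGFBP4, where the median window holds 11. Neither window holds the core CAAAACA of the insulin response element, which 4.3% of windows hold, nor the E box CACGTG, which 6.34% hold. RefSeq windows were matched for 5 of the 7 members. GENCODE also has a transcript of IGFBP6 that starts at 53097436, inside this window.

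The gene next to IGFBP6 on the higher side, SOAT2, begins 1140 bp away and had at most 1 count in any library. On the other side SPRYD3, 18031 bp away, had a log2 fold change of -0.09 (SE 0.099, adjusted p = 0.609). TNS2, a tensin gene 33056 bp away, ran from 119 to 135 counts in WT and from 95 to 109 counts in S6K1-/- hESCs, with a log2 fold change of -0.27 (SE 0.108, adjusted p = 0.115). Neither SPRYD3 nor TNS2 passed the threshold, and SOAT2 was too low to test.
The genes whose log2 CPM followed IGFBP6 most closely over the 6 libraries (16797 genes averaging 1 CPM or more were compared) were PDE4B, SPON1 and SNAI3, each with a Pearson correlation of 0.998. This is a description of 6 points in 2 genotypes, and 527 genes had a correlation over 0.95. PDE4B, a phosphodiesterase of cyclic AMP, fell by 1.02 on the log2 scale (adjusted p = 3.25e-05), while SPON1 at -0.48 (adjusted p = 0.00187) and SNAI3 at -0.38 (adjusted p = 0.0138) did not pass the threshold.

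IGFBP6 is also made by fibroblasts and other mesenchymal cells, so markers of the other cell types a culture could hold were read beside it. Of 10 mesenchyme markers, 5 were tested and 2 passed, where TWIST2 fell by 1.00 and PDGFRB fell by 1.34 on the log2 scale (adjusted p = 1.80e-05 and 5.41e-06). The log2 fold changes were negative for 4 of the 5, while PDGFRA was at 0.17 (adjusted p = 0.633 from edgeR) with overlap between the genotypes. The summed level of the list ran from 492.4 to 515.8 CPM in WT and from 479.5 to 501.1 CPM in S6K1-/- hESCs, most of it THY1, which stem cells also express. DCN was at 0 in every library, and PRRX1, TWIST1, LUM and COL3A1 had 3 counts or fewer in each. Of 10 endothelium markers, 7 were tested and TEK fell by 3.17, with summed levels from 154.5 to 164.0 and from 148.3 to 150.9 CPM, while PECAM1 had 3 counts or fewer. Most of that sum was KDR, at 103.9 CPM in WT and 107 CPM in S6K1-/- hESCs on average. At an unadjusted p under 0.05, 4 endothelium markers were lower and 0 higher, among them TIE1 at -0.71 and ERG at -0.36 (adjusted p = 0.0200 and 0.00874), both without overlap between the genotypes. The same cut held 3 lower and 0 higher mesenchyme markers. In bulk RNA, fewer cells of a type and less RNA per cell cannot be told apart, and the part of such cells in the IGFBP6 value was not tested. Of the neuroectoderm markers 5 were tested, of which DCX fell by 0.54 and PAX6 rose by 0.76 in edgeR, whereas DESeq2 called 0 lower and 1 higher, and the summed level of the list ran from 448.6 to 466.6 CPM in WT and from 432.1 to 448.3 CPM in S6K1-/- hESCs. Nearly all of that sum was NES, at 442.1 CPM in WT and 423.7 CPM in S6K1-/- hESCs on average, with a log2 fold change of -0.061 (adjusted p = 0.358 from edgeR). SOX1 and ELAVL3, with log2 fold changes of 1.29 and -0.80 (adjusted p = 0.0174 and 0.0148), missed the threshold without overlap between the genotypes. Of 5 endoderm and 3 amnion and trophoblast markers tested, 0 passed in edgeR. FOXA2 of the endoderm list, at -0.88 (adjusted p = 0.00108), and KRT7 of the amnion and trophoblast list, at -0.82 (adjusted p = 0.00103), lay just outside the threshold. HHEX of the endoderm list went the other way, at 0.36 (adjusted p = 0.0646 from edgeR), without overlap between the genotypes. At an unadjusted p under 0.05, 4 endoderm markers were lower and 1 higher, and 1 amnion and trophoblast marker was lower, while 14.5% of all genes were lower and 11.8% higher. DESeq2's Wald test called 1 endoderm marker lower and 0 of the other list. The summed levels were low, and lower in S6K1-/- hESCs without overlap, from 14.1 to 16.6 CPM in WT and from 11.4 to 12.9 CPM in S6K1-/- hESCs for endoderm and from 20.7 to 22.5 and from 17.8 to 19.8 CPM for amnion and trophoblast. Most of the amnion and trophoblast sum was GABRP, at 15.3 CPM in WT and 15.0 CPM in S6K1-/- hESCs on average. KRT7 of that list went from 5.03 to 2.84 CPM. In the endoderm sum, FOXA2 went from 6.09 to 3.32 CPM and HHEX from 5.55 to 7.12 CPM.

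IGFBP2 and IGFBP4 made up most of the family's mRNA. IGFBP2, abundant in fetal tissue and brain, lies on the plus strand of chromosome 2 from 216632828 to 216664436. It had 5621, 6717 and 4952 counts in WT and 4561, 5340 and 4438 counts in S6K1-/- hESCs. The second S6K1-/- library was above the third WT library, so the genotypes overlapped once scaled by depth, at 239.1 ± 30.9 and 207.1 ± 14.7 CPM (SD, n = 3 each). The log2 fold change was -0.21 (SE 0.073, 95% interval -0.36 to -0.05, edgeR adjusted p = 0.0757). Its spread within WT, a coefficient of variation of 12.9%, was far above the 1.32% that counting alone gives. Without WT replicate 2 the log2 fold change was -0.10, and without any filter on low counts the adjusted p was 5.66e-05, the lowest of the alternatives, whose highest was 0.418.
IGFBP4, an inhibitor of IGF action that is cut by the protease PAPP-A, lies on the plus strand of chromosome 17 from 40443450 to 40457725. It had 2385, 2486 and 2171 counts in WT and 2545, 2983 and 2511 counts in S6K1-/- hESCs. Every S6K1-/- library was higher than every WT library, at 97.5 ± 3.85 CPM against 116.1 ± 8.13 CPM (SD, n = 3 each). The log2 fold change was 0.25 (SE 0.051, 95% interval 0.14 to 0.36), and its adjusted p of 0.00354 from edgeR missed the threshold of 0.001 but not that of 0.05. DESeq2's Wald test gave an adjusted p of 2.11e-04, past the threshold, and over all the alternatives it ran from 2.09e-06 to 0.0224.

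**Figure D2:**
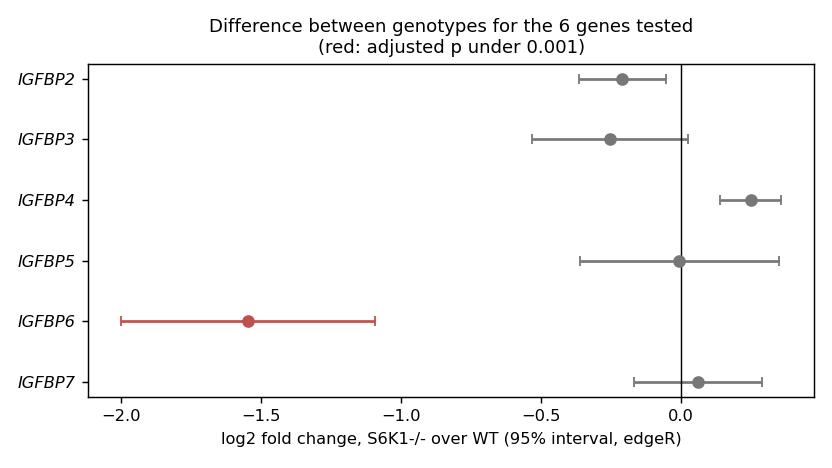
Log2 fold change of S6K1-/- over WT hESCs (horizontal axis) for the 6 members tested, with 95% intervals from the edgeR fit and the 1 gene past an adjusted p of 0.001 in red. The interval of IGFBP6 runs from -2.00 to -1.09, while those of IGFBP3, IGFBP5 and IGFBP7 hold 0.

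The balance between these abundant members was then compared within each library, where library scaling cancels. This ratio was chosen after its values were seen and is given without a test. Per length, IGFBP4 was at 0.912, 0.796 and 0.943 times the level of IGFBP2 in the WT libraries and at 1.20, 1.20 and 1.22 times in the S6K1-/- libraries. On this scale all WT libraries had more IGFBP2 and all S6K1-/- libraries more IGFBP4, but which gene is ahead rests on the exonic lengths used, 4742 bases for IGFBP2 and 2205 for IGFBP4, and IGFBP2 had more counts in all 6 libraries. The difference between the genotypes in this ratio does not depend on the lengths. On the log2 scale the ratio was -0.18 ± 0.13 in WT and 0.27 ± 0.011 in S6K1-/- hESCs (SD, n = 3 each), a difference of 0.45, which ran from 0.38 to 0.50 with each library left out in turn. IGFBP2 and IGFBP4 both had their highest value in replicate 2 of each genotype. As shares of the summed level per length, IGFBP2 took from 47.2% to 50.8% in WT and from 41.5% to 42.2% in S6K1-/- hESCs, and IGFBP4 from 40.5% to 44.5% and from 50.4% to 50.7%. The summed level of all 7 genes ran from 324.9 to 397.3 CPM in WT and from 320.7 to 367.2 CPM in S6K1-/- hESCs, and the genotypes overlapped.

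**Figure D3:**
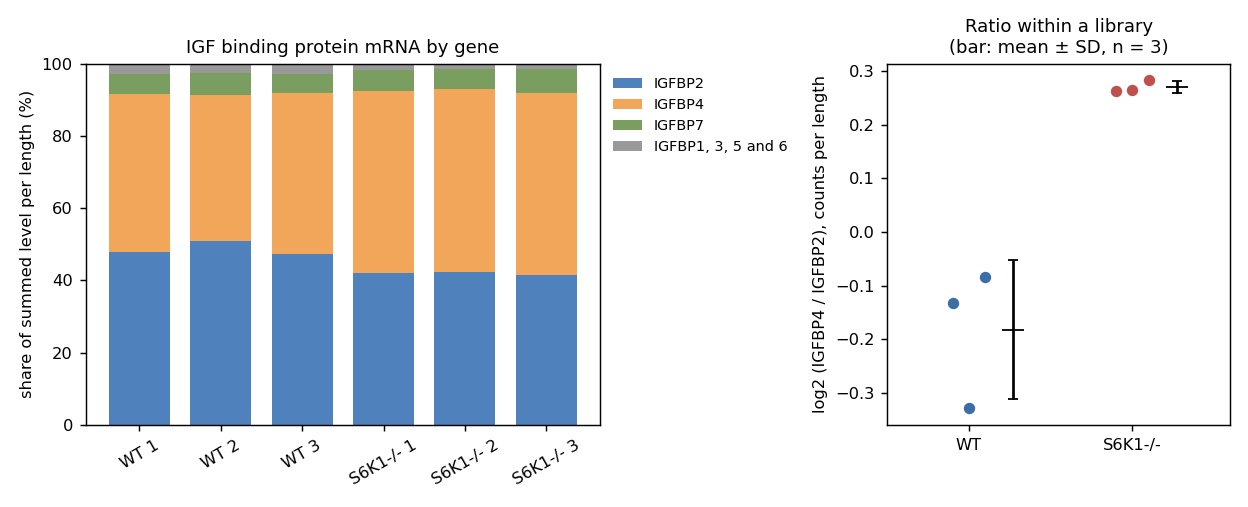
Left, share of each gene in the summed level per length of the 7 IGF binding protein genes (%, bars to 100) in each library. Right, log2 ratio of IGFBP4 to IGFBP2 in counts per length, with points for the libraries and the mean ± SD (n = 3), which lies from -0.33 to -0.085 in WT and from 0.26 to 0.28 in S6K1-/- hESCs.

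IGFBP7 binds IGFs weakly and is a protein of the matrix around blood vessels. It lies on the minus strand of chromosome 4 from 57030773 to 57110385, and it overlaps POLR2B on the opposite strand over 386 bp. Its counts were 261, 336 and 228 in WT and 263, 282 and 279 in S6K1-/- hESCs. The S6K1-/- libraries lay inside the range of the WT libraries, at 11.9 ± 0.819 against 11.4 ± 2.01 CPM (SD, n = 3 each). The log2 fold change was 0.06 (95% interval -0.17 to 0.29, adjusted p = 0.775 from edgeR), and it was -0.026 without WT replicate 3. The strand setting of the counting is not given in the sources used here, so reads of POLR2B, at 4112 to 4481 counts, could enter through the overlap. IGFBP7-AS1, an antisense gene within it, had from 2 to 7 counts.

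IGFBP3 and IGFBP5 were low. IGFBP3, the main carrier of IGFs in blood, lies on the minus strand of chromosome 7 from 45912245 to 45921874. It had 79, 83 and 80 counts in WT and 68, 67 and 60 counts in S6K1-/- hESCs. All S6K1-/- libraries were under all WT libraries, by a margin within counting error, and the libraries of a genotype were closer together (a coefficient of variation of 3.02% in WT) than the 11.1% that counting alone gives. The log2 fold change was -0.25 (SE 0.131, 95% interval -0.53 to 0.028), with an adjusted p of 0.242 from edgeR. The interval holds 0.
IGFBP5, a binding protein deposited in bone and other matrix, lies on the minus strand of chromosome 2 from 216672105 to 216695549. It had 93, 97 and 69 counts in WT and 77, 107 and 64 counts in S6K1-/- hESCs. DIRC3-AS1, a long noncoding RNA gene on the opposite strand, shares part of this segment. Because the strand setting of the counting is not given, its reads could enter the counts of IGFBP5, which was not tested. The genotypes overlapped, the S6K1-/- libraries spreading wider at both ends, with a log2 fold change of -0.0038 (95% interval -0.36 to 0.35, adjusted p = 0.991 from edgeR), so changes within this interval could not be seen.

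IGFBP1, made by liver and decidua and known as a gene repressed by insulin, lies on the plus strand of chromosome 7 from 45888360 to 45893660. It had 3, 2 and 3 counts in WT and 1, 0 and 0 counts in S6K1-/- hESCs. It did not pass the filter on low counts, and since both genotypes were at or under 3 counts in each library no fold change is given.

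In the genome, 4 of the 7 genes form 2 neighbouring pairs. IGFBP2 and IGFBP5 lie 7668 bp apart on opposite strands, with their ends facing each other, and IGFBP1 and IGFBP3 18584 bp apart in the same arrangement. Within both pairs the genes differed in level, with IGFBP2 at 50.4 and IGFBP5 at 0.554 CPM per kilobase in WT, and IGFBP3 at 0.734 and IGFBP1 at 0.068. Tensin genes, which encode proteins that link integrins to actin, lie on the same chromosome as each member other than IGFBP7. TNS3, 1353279 bp from IGFBP3, rose by 0.31 on the log2 scale (SE 0.048, adjusted p = 3.73e-04 from edgeR), from 60.1 ± 3.55 to 74.6 ± 1.72 CPM (SD, n = 3 each). It missed the threshold with WT replicate 3 or any of S6K1-/- replicates 1, 2 and 3 left out (adjusted p = 0.00212, 0.00312, 0.00244 and 0.00137). TNS4, 18102 bp from IGFBP4, and TNS1, on the chromosome of IGFBP2 and IGFBP5, had log2 fold changes of -0.63 and -0.069 (adjusted p = 0.263 and 0.785). TNS4 was at -0.26 without S6K1-/- replicate 3, which had 6 counts, at -0.42 without WT replicate 2 and at -0.92 without S6K1-/- replicate 2. On the other side of IGFBP4, TOP2A, 25553 bp away, had a log2 fold change of 0.14 (adjusted p = 0.0282). RPL37A, 53647 bp from IGFBP2, had one of 0.041 (adjusted p = 0.660 from edgeR). NOA1, 53166 bp from IGFBP7, had 0.061 (adjusted p = 0.495). ADGRL3, the next gene on the other side of IGFBP7 but 4089940 bp away, had 0.10 (adjusted p = 0.334). POLR2B, which overlaps IGFBP7, had 0.12 (adjusted p = 0.0809). CCDC201, beside IGFBP1, had at most 1 count in any library, and TNP1, beside IGFBP5, had 0 counts in all.

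The other genes of the IGF axis were read from 8 lists by role, with 34 of 44 genes tested. Of these, 2 fell and 0 rose by edgeR. At an unadjusted p under 0.05, 10 were lower and 3 higher, beside 14.5% and 11.8% of all genes, and the Wald test of DESeq2 gave 3 lower and 0 higher at 0.001, beside 2.32% and 1.62%. The log2 fold changes of the 34 genes had a median of -0.016, and 20 were negative.
The ligands were nearly absent. IGF1 had at most 2 counts and IGF2 at most 2 counts in any library, and INS had 0 counts in all. IGFALS, the subunit that joins IGFBP3 and the ligand in blood, had at most 4 counts. The receptors were present. IGF1R ran from 5590 to 6199 counts in WT and from 5540 to 6341 counts in S6K1-/- hESCs, with a log2 fold change of 0.081 (SE 0.050, adjusted p = 0.339). IGF2R, which clears IGF2, had a log2 fold change of 0.13 (adjusted p = 0.0963) and INSR, the insulin receptor, one of -0.13 (adjusted p = 0.0971), while INSRR had 5 counts or fewer. Both IGF1R and IGF2R overlapped between the genotypes, and INSR was lower in every S6K1-/- library without passing the test.
Both genes that fell encode proteins related to IGF binding proteins in sequence but best known as matricellular proteins. CCN2, also known as CTGF, fell by 2.13 on the log2 scale (adjusted p = 4.52e-12) and CCN1, or CYR61, by 1.13 (adjusted p = 4.42e-10). Among the others of this group tested, IGFBPL1, KAZALD1, CCN6 and CRIM1, none passed in edgeR or in DESeq2, and the log2 fold changes ran from -0.12 in IGFBPL1 to 0.38 in CCN6. In the other groups 0 genes passed in edgeR, over 6 adaptors and substrates of the receptors, 9 proteases and their inhibitors, 7 cell surface partners and 3 RNA-binding proteins of IGF2 mRNA. At an unadjusted p under 0.05, where 14.5% of all genes were lower and 11.8% higher, 2 adaptors were lower and 1 higher, 3 proteases or inhibitors were lower, 1 surface partner was lower and 1 RNA-binding protein was higher. DESeq2 called 1 gene of these groups, STC1, as lower. ITGB1, PTPRZ1 and LRP1, surface proteins to which IGF binding proteins attach, were all present, with log2 fold changes of 0.039, 0.012 and -0.014. The surface partner counted as lower, ITGA5, was at -0.15 (adjusted p = 0.0672 from edgeR), without overlap between the genotypes. The genes named next were chosen after their values were seen. STC1, an inhibitor of PAPP-A, had 25.0, 31.8 and 27.4 CPM in WT and 19.3, 22.9 and 18.4 CPM in S6K1-/- hESCs, with a log2 fold change of -0.47 (SE 0.092, adjusted p = 0.00260 from edgeR). PAPPA, the protease that cuts IGFBP4, had 35, 23 and 25 counts in WT and 13, 14 and 17 counts in S6K1-/- hESCs, with a log2 fold change of -0.85 (SE 0.263, adjusted p = 0.0446). For both genes every S6K1-/- library was under every WT library, and neither passed 0.001 in edgeR, while STC1 did in DESeq2. STC2, of the same list as STC1, had a higher level, at 71.6 ± 3.06 CPM in WT and 70.4 ± 1.76 CPM in S6K1-/- hESCs (SD, n = 3 each). Its log2 fold change was -0.024 (adjusted p = 0.791 from edgeR), and the genotypes overlapped.

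**Figure D4:**
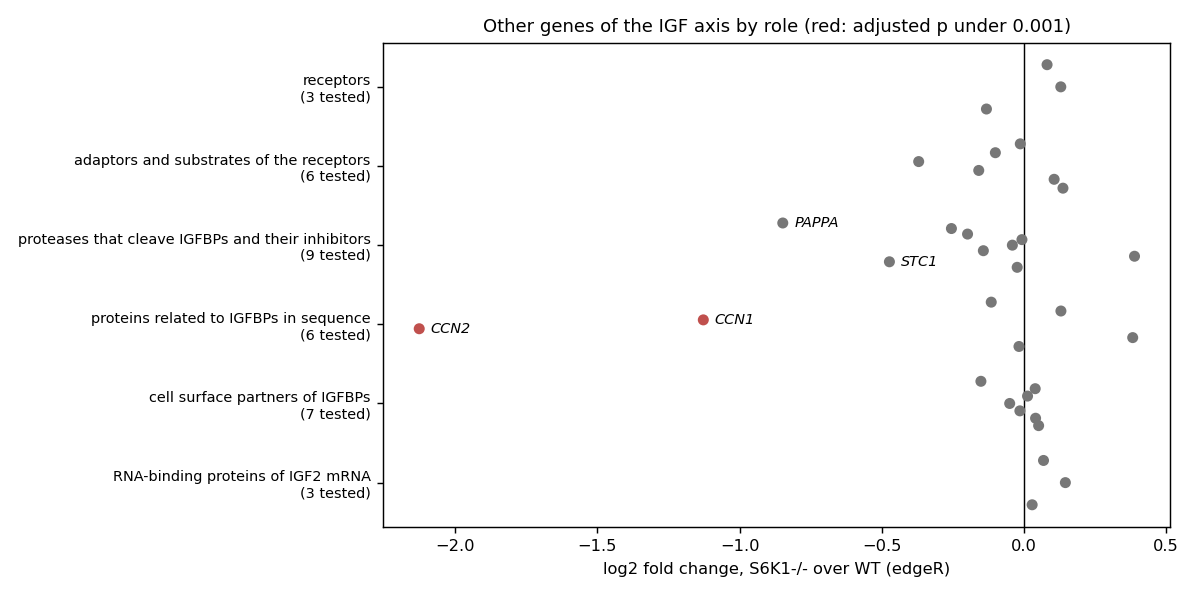
Log2 fold change of S6K1-/- over WT hESCs (horizontal axis) for the 34 other genes of the IGF axis tested, grouped by role (rows), with genes past an adjusted p of 0.001 in red. CCN2 at -2.13 and CCN1 at -1.13 lie apart from the rest, which run from -0.85 in PAPPA to 0.39 in ADAM28.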

How the data were processed

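Bulk RNA sequencing libraries of WT and S6K1-/- hESCs, 3 each, were analysed from the deposited table. The authors prepared them from total RNA with a stranded poly(A) kit, trimmed reads with Trim Galore 0.6.5, aligned them to GRCh38 with Bowtie2 2.4.5 and deposited whole-number counts per gene symbol, without normalization. The annotation release and strand setting are not given in the sources used here. A deposited table of the authors' DESeq2 comparison (fold changes, errors and p-values) was not used.

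Genes passing filterByExpr (19521 of 61155) were fitted with edgeR 4.0.16 (R 4.3.3), TMM scaling, quasi-likelihood F test, genotype as the only term and Benjamini-Hochberg adjustment over all genes tested. A threshold of 0.001 was taken from the methods. Standard errors come from the fold change and F. CPM are TMM-scaled. Exonic lengths and positions are from GENCODE 44 and promoter windows from RefSeq (GRCh38.p14). The pipeline was tested on simulated data. Alternatives were DESeq2 1.42.0 size factors and Wald test, other filters, a replicate block, each library left out, and a threshold of 0.05.

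Libraries of a genotype differed by 2.23 to 4.51 in chi-square per degree of freedom, above counting noise, so none was counted as a repeat. The members and lists were chosen with earlier results of these data known. The rule names all members, RPS6KB1, ligands, receptors, other axis genes past the threshold, tensin genes, neighbours, and the 3 genes most like each member past the threshold.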

Additional observations from a re-analysis of the deposited data

How the results depend on the processing

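The decrease of IGFBP6 kept its direction in all 11 alternative fits, from -1.66 to -1.41 on the log2 scale, and missed 0.001 only without S6K1-/- replicate 2. The number of lower members was 1, and from 0 to 1 with a library left out. Without a filter on low counts, where IGFBP2 also passed, it was 2. The number of higher members was 0, and 1 (IGFBP4) with DESeq2's Wald test, without the filter, or at a threshold of 0.05. Of the other axis genes, 2 were lower and 0 higher, against 4 lower without the filter and 6 lower and 2 higher at 0.05. Over all genes, 496 were lower and 278 higher, against 982 and 591 without the filter and 1622 and 1067 at 0.05, and with a library left out from 313 to 445 lower and from 175 to 235 higher. The causes were not tested. IGFBP5, near 0, turned to 0.0028 with DESeq2's size factors and 0.0043 with its Wald test, and ran from -0.20 to 0.12 with a library left out. Over the same fits IGFBP7 ran from -0.026 to 0.22 and TNS1 from -0.18 to 0.085. With the replicate block, 1 member was lower and 0 higher, 3 other axis genes were lower, and 423 genes in all were lower and 241 higher. The deviations of same-numbered libraries correlated at 0.308, 0.0949 and 0.0754 over 8081 genes and those of differently numbered ones at -0.308 to 0.185. WT replicate 2 correlated best with S6K1-/- replicate 3. Since only 1 of the 3 is over 0.1 and no label names a shared batch, the numbers were not used to pair the libraries. The low counts of IGFBP1, IGFBP3, IGFBP5 and IGFBP6 limit their precision.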
